A study of Caenorhabditis elegans with 4 samples.

Results

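The genes described here build the meiotic chromosome axis and the synaptonemal complex of Caenorhabditis elegans. They are 9 named genes, grouped by their function with earlier results of these data known, among 19971 protein-coding genes on the nuclear chromosomes. They comprise the central-region genes syp-1, syp-2, syp-3 and syp-4, the axis genes htp-1, htp-2, htp-3 and him-3, and the cohesin gene rec-8. Chromosome I holds 3 of them (syp-3, syp-4, htp-3), chromosome IV holds 4 (htp-1, htp-2, him-3, rec-8) and chromosome V holds 2 (syp-1, syp-2).

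Binding of EFL-1, an E2F-family transcription factor, was mapped by chromatin immunoprecipitation and sequencing (ChIP-seq) with a rabbit polyclonal antibody. The animals were hermaphrodite L1 larvae of strain MT10430, which carries lin-35(n745). LIN-35 is the worm relative of the retinoblastoma tumour suppressor. The study comprised 2 EFL-1 ChIP samples and 2 input samples, all of this genotype and stage, so that no animals with intact lin-35 entered any comparison. The stage label adds the tag 26dC, while the protocol gives growth at 20 °C, and this difference was not settled. Nothing in the labels ties the ChIP samples to separate cultures, and differences between them may therefore reflect technical error alone. Whole larvae were used, so a peak cannot be assigned to germ cells or to somatic cells.

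In meiosis, cohesin with the kleisin REC-8 holds sister chromatids together along an axis. HORMA-domain proteins (HTP-3, HIM-3, HTP-1 and HTP-2) coat that axis. The SYP proteins then form the central region of the synaptonemal complex, which joins the axes of homologous chromosomes like a zipper. In L1 larvae the germ line consists of a few primordial germ cells that have not entered meiosis. E2F factors and LIN-35 act together in a repressor complex, and mutants of this complex are known for expressing germline genes in somatic tissue. No expression was measured here.

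The data are lists of peaks in WS220 coordinates, 4966 in the combined list, 22275 in replicate 1 and 22464 in replicate 2. Each peak carries a number. In the replicate lists the authors' score falls as the number rises, apart from ties. It is tied at its top value for 5002 peaks of replicate 1 and 3810 of replicate 2. A peak with a low number is called strong below, and among tied peaks this rests on the number alone. In the combined list all scores are equal and the number alone was used. Read counts and depth per sample were unknown, so no interval on a peak's strength could be given. A fixed width set by the caller, 324 bp in replicate 1 and 330 bp in replicate 2, was shared by 91.4% and 93.7% of peaks.

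A gene was to count as bound if a peak centre lay within 500 bp of its annotated start. The gene table used here gives both ends of each gene but no strand, so the start is one of those ends. Peaks were therefore tied to either end, called the lower and the upper end by coordinate, and whether such an end is the start was not settled. The table is of assembly WBcel235. Its offset from WS220 was estimated from the peaks themselves, since a shift moves the distances to lower and to upper ends the same way. For combined peaks, the estimated offset (peak centre minus gene end) was -10.5 bp on chromosome I, -14.75 bp on chromosome IV and -6.5 bp on chromosome V. Within 1 Mb of the members it lay between -50.5 and 18.5 bp over the 3 lists. All distances below carry this uncertainty, and no member's call at an end changed when gene ends were shifted by 100 bp either way or by the estimated offset.

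In the combined list 3 of the 9 genes had an EFL-1 peak at an end, namely syp-2, syp-4 and htp-3. That is 33.3% of the members, against 19.7% of all protein-coding genes (3925 of 19971). Each of the 3 had its peak at one end alone, so without strand the number of members with a combined peak at the start lies between 0 and 3. Of all genes, 10.6% had a combined peak at the lower end and 11% at the upper end. With 9 genes, 1 gene more or fewer moves the members' share by 11.1 percentage points. The other 6 genes had none there, and syp-1 had a strong peak well inside the gene instead. These 3 genes also had a peak at an end in both replicate lists. That was nearly given by the combined call, since 3894 of the 3925 genes with a combined peak at an end had one in all 3 lists. These are 19.5% of all genes. In replicate 1, 8 of the 9 genes had a peak at an end (88.9%), against 44.3% of all genes. In replicate 2 it was 7 of 9 (77.8%), against 44.9% of all genes. A peak at an end in a replicate list but not in the combined list was found for 5 members (55.6%), against 36.3% of all genes. Most of these additional peaks were weak. Among the 4966 strongest peaks of each replicate, as many as the combined list holds, the members with a peak at an end again numbered 3, against 19.4% of all genes in replicate 1 and 19.2% in replicate 2.

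**Figure D1:**
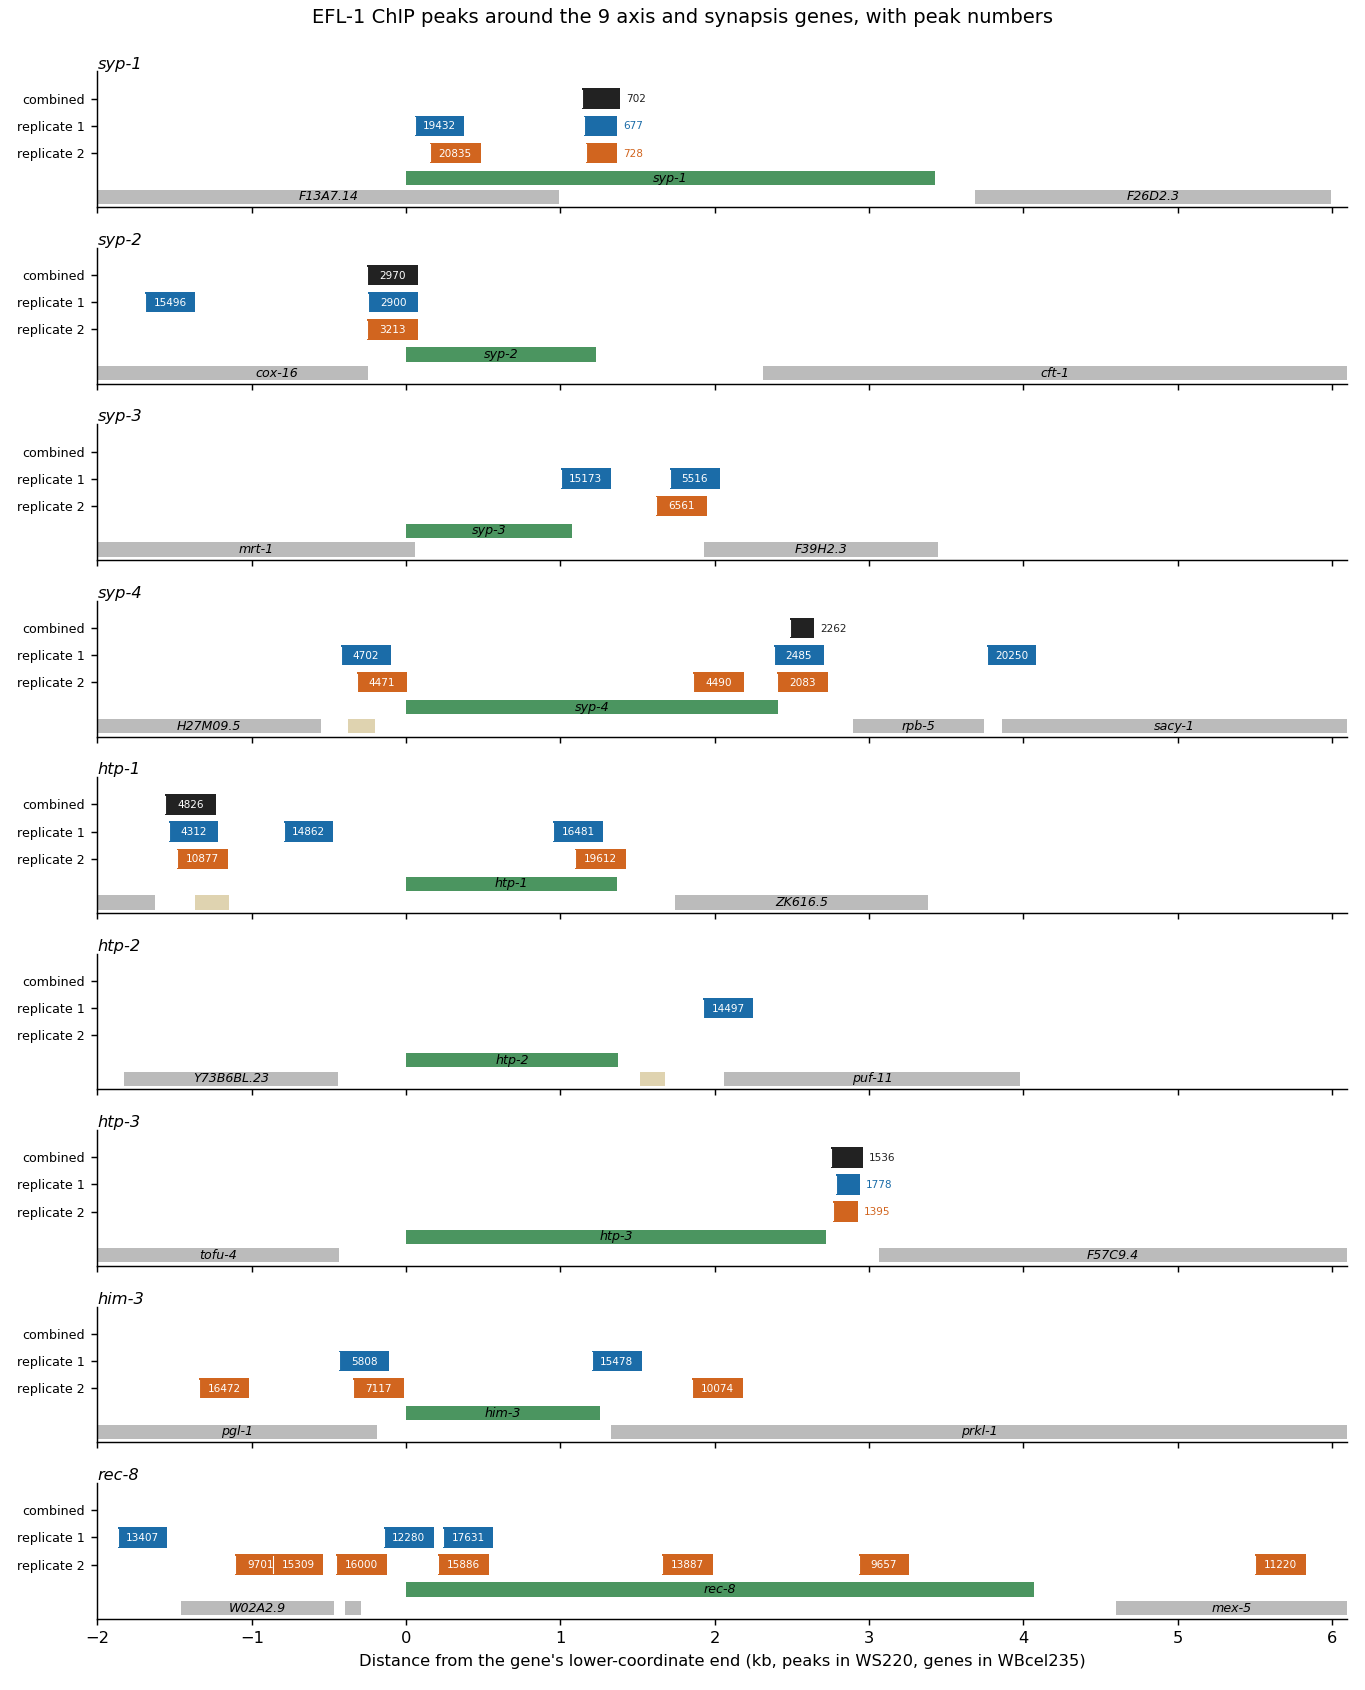
Map of each of the 9 genes (green) with neighbouring protein-coding genes (grey), other genes except piRNAs (beige) and the EFL-1 peaks of the combined, replicate 1 and replicate 2 lists, each with its peak number; the x axis gives the distance from the gene's lower end in kb. Peaks of all 3 lists coincide at one end of syp-2, syp-4 and htp-3 and inside syp-1, while htp-2 has no peak within 500 bp of either end.

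The central-region gene syp-1, which encodes a coiled-coil protein of the synaptonemal complex, carried the peak with the lowest number of any member. In WS220 this peak ran from 16405416 to 16405658 on chromosome V, was number 702 of the combined list, 677 of replicate 1 and 728 of replicate 2. By number it lies in the strongest 14.1%, 3.04% and 3.24% of these lists. In each list its score was tied with those of the peaks at syp-2, at htp-3 and beyond the upper end of syp-4. The centre of the syp-1 peak lay inside the annotated gene, at 1263 bp from the lower end and 2164 bp from the upper end. This gene is 3428 bp long with 1 transcript. The centres of the 2 replicates were 7.5 bp apart. By the 500 bp rule syp-1 was therefore without a combined peak. The annotated gene overlaps its neighbour F13A7.14 by 991 bp at the lower end, and the peak centre was 273 bp beyond the end of F13A7.14. Among protein-coding genes at least as long as syp-1, 10.8% had a combined peak centre inside the gene and over 500 bp from both ends (572 of 5315), and among all protein-coding genes 3.43% did. No other member had such a peak. At its lower end syp-1 also had a weak peak in each replicate, number 19432 in replicate 1 and number 20835 in replicate 2.

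The gene syp-2, also of the central region, had a single peak at its lower end in every list. It ran from 5536233 to 5536562 on chromosome V and was number 2970 in the combined list, 2900 in replicate 1 and 3213 in replicate 2. The centre was 89.5 bp outside the gene in the combined list, 83.5 bp in replicate 1 and 90.5 bp in replicate 2. The lists thus placed the peak at nearly the same position. Its centre lay in the 243 bp between syp-2 and cox-16, a mitochondrial cytochrome c oxidase assembly gene, at 154.5 bp from the end of cox-16. At 330 bp the peak is wider than this gap and reaches into both genes, and the lists do not tell which of them it belongs to.

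The gene syp-3 had no replicated peak at an end. Replicate 1 alone had a weak peak, number 15173, with its centre 91.5 bp beyond the upper end. A stronger pair of overlapping peaks, number 5516 in replicate 1 and 6561 in replicate 2, lay 799.5 and 712.5 bp beyond that end. They were closer to the next gene, F39H2.3, at 56.5 and 143.5 bp from its end. The nearest combined peak was 22671.5 bp away from syp-3. At its other end syp-3 overlaps mrt-1, a telomere maintenance gene, by 57 bp, and no list had a peak there.

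The gene syp-4 was the only member with replicated peaks at both ends. The combined peak lay beyond the upper end, from 6849999 to 6850156 on chromosome I, with its centre 154.5 bp outside the gene. It was number 2262 in the combined list, 2485 in replicate 1 and 2083 in replicate 2. The gap on this side is 485 bp wide and leads to rpb-5, which encodes an RNA polymerase subunit, with the peak centre 331.5 bp from the end of rpb-5. At the lower end, peaks number 4702 in replicate 1 and 4471 in replicate 2 overlapped by 221 bp and had centres 261.5 and 155.5 bp outside the gene. The replicate 1 centre lay inside the noncoding RNA genes H27M09.6 and H27M09.7 and the replicate 2 centre just outside them. The combined list held no peak there. A further replicate 2 peak, number 4490, was centred 386.5 bp inside the upper end. In replicate 1, syp-4 and him-3 had peaks at both ends, against 14.2% of protein-coding genes. In replicate 2 syp-4 alone did, against 13.6%. The share of all genes with peaks at both ends in both replicates was not computed. In the combined list no member had peaks at both ends, against 1.91% of all genes.

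Of the HORMA-domain genes, htp-3 had the only combined peak at an end. HTP-3 is the axis protein on which the other HORMA-domain proteins depend for loading, and it is also required for the DNA breaks that start recombination. The peak ran from 4829828 to 4830031 on chromosome I and was number 1536 in the combined list, 1778 in replicate 1 and 1395 in replicate 2. The centre lay 133.5 bp beyond the upper end in the combined list, 139 bp in replicate 1 and 124.5 bp in replicate 2. All 3 centres fall in the 338 bp gap between htp-3 and F57C9.4, whose end was 205.5 bp from the combined centre. The peak was narrow, 204 bp in the combined list, 155 bp in replicate 1 and 162 bp in replicate 2, below the fixed width of each replicate list. This was not particular to htp-3. The combined peak at syp-4 was 158 bp wide, and the peak inside syp-1 was 216 bp in replicate 1 and 199 bp in replicate 2.

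The gene him-3, whose product is an axis component needed for homologue pairing and synapsis, had a replicated peak of middle strength that was not in the combined list. Its number was 5808 in replicate 1 and 7117 in replicate 2, in the strongest 26.1% and 31.7% of those lists. The peaks overlapped by 235 bp, and their centres were 272.5 and 180.5 bp outside the lower end. They were closer to pgl-1, which encodes a core protein of germ granules. The replicate 1 centre lay inside pgl-1 at 82.5 bp from its end, and the replicate 2 centre lay 9.5 bp outside it. The gap between both genes is 189 bp. At the upper end, replicate 1 alone had a weak peak, number 15478. The nearest combined peak to him-3 was 37954 bp away.

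The paralogs htp-1 and htp-2 had no combined peak at an end. HTP-1 and HTP-2 are closely related HORMA proteins that act together in the release of sister chromatid cohesion, and HTP-1 also guards against synapsis between chromosomes that are not homologous. At the upper end of htp-1 lay weak peaks number 16481 in replicate 1 and 19612 in replicate 2, which overlapped by 186 bp and had centres 251.5 and 110.5 bp inside the gene. The only combined peak nearby was number 4826, near the end of the list, at 1395.5 bp beyond the lower end of htp-1. It was 26.5 bp from the noncoding RNA gene F41H10.36 and 234.5 bp from elo-6, a fatty acid elongase gene, and its numbers in the replicates were far apart (4312 in replicate 1 and 10877 in replicate 2).

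For htp-2 no list held a peak within 500 bp of either end, as for 44% of all protein-coding genes. The nearest was peak 14497 of replicate 1, 710.5 bp beyond the upper end and inside puf-11, a gene for a PUF-family RNA-binding protein. In the combined list the nearest peak was 4184 bp from htp-2. The sequences of htp-1 and htp-2 are much alike, so reads may map to both. How such reads were treated is not given in the sources at hand, and its part in the few peaks at these genes was not tested.

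The gene rec-8, the meiosis-specific cohesin kleisin, had only weak peaks, and several of them. Replicate 1 had 2 at the lower end, number 12280 centred 16.5 bp inside the gene and number 17631 centred 402.5 bp inside. Replicate 2 had 2 there as well, number 16000 centred 287.5 bp outside and number 15886 centred 371.5 bp inside. Peaks 17631 and 15886 coincided, with an overlap of 296 bp, whereas 12280 and 16000 overlapped by 23 bp. Replicate 2 alone had further weak peaks along the gene, numbers 13887 and 9657. The nearest combined peak was 17300 bp from rec-8, and the upper end, which faces the germline gene mex-5, had no peak within 500 bp in any list.

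**Figure D2:**
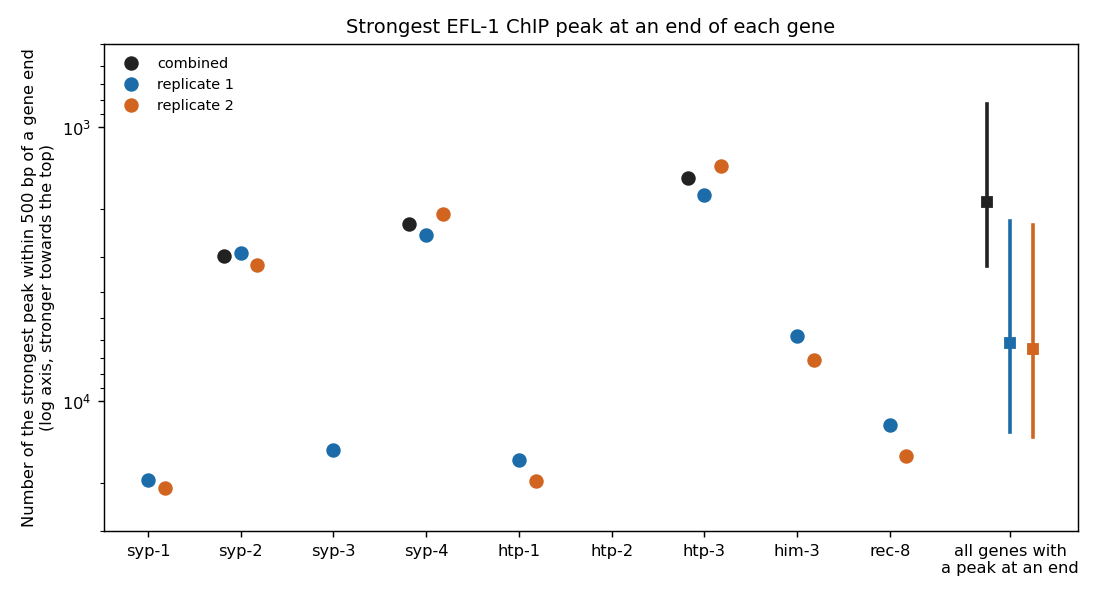
Number of the strongest peak within 500 bp of an end of each member (points, log axis, stronger peaks towards the top), and on the right the median (square) and quartiles (line) over all protein-coding genes with such a peak. The combined, replicate 1 and replicate 2 points lie close together for syp-2, syp-4 and htp-3, whereas syp-1, syp-3, htp-1 and rec-8 lie between 12280 and 20835 in every list in which they have a point, and htp-2 has none.

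Peaks at members' ends that the combined list left out ranged from numbers 4471, 4490 and 4702 at syp-4 through 5808 and 7117 at him-3 to 20835 at syp-1. The 3 combined peaks at an end had a median number of 2262, against 1893 over the 3925 genes with a combined peak at an end, whose quartiles were 829 and 3219. In replicate 1 the strongest peak at an end had a median number of 9044 over 8 members, against 6172.5 over 8854 genes. In replicate 2 the median was 7117 over 7 members, against 6507 over 8976 genes. In each list the members' median number was higher, but it lay between the quartiles of all genes with a peak. These quartiles were 2217 and 13058 in replicate 1, and 2282.75 and 13585.2 in replicate 2. Overlapping peaks of both replicates at an end were found at 7 of the 9 genes, against 29.7% of all genes. Of these 7, the 4 without a combined peak at an end were syp-1, htp-1, him-3 and rec-8. All 3 combined peaks at an end had their centres between genes rather than inside one, and each centre was nearer to the member's end than to the neighbour's, with no offset between builds applied. How often either holds over all genes with a combined peak at an end was not computed, so neither is a trait of the members.

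The members with a combined peak at an end were split by chromosome. Chromosome I held syp-4 and htp-3, 2 of its 3 members, and 28.4% of its protein-coding genes had a combined peak at an end. Chromosome V held syp-2, 1 of its 2 members, where the share of all genes was 13.4%. On chromosome IV none of the 4 members had one, against 19.6% of its genes.

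**Figure D3:**
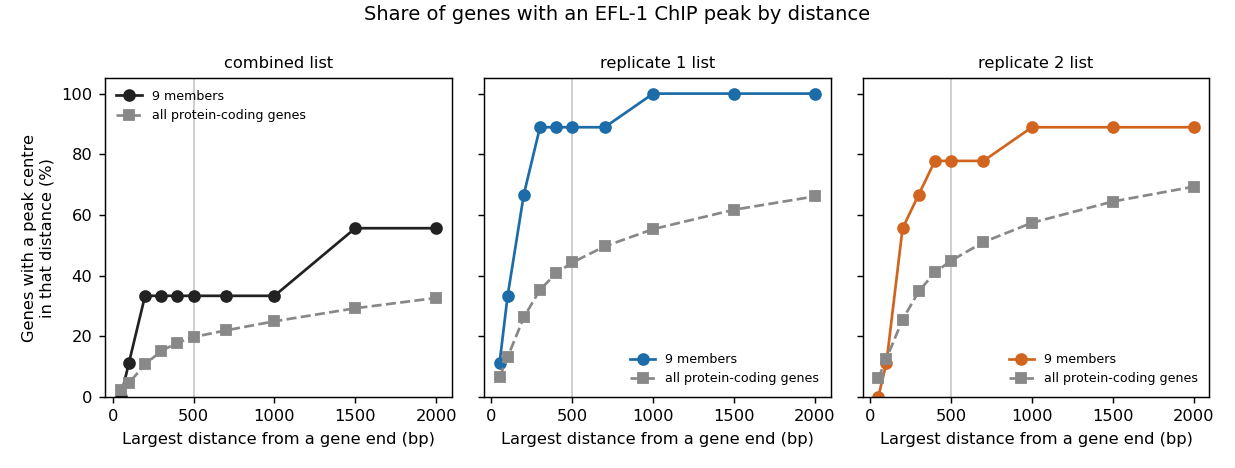
Share of the 9 members (coloured circles) and of all protein-coding genes (grey squares) with a peak centre within the distance from a gene end given on the x axis in bp, for each of the 3 lists; the vertical line marks 500 bp. The members' share in the combined list is 33.3% at every distance from 200 to 1000 bp, where that of all genes rises from 10.7% to 24.9%. From 1500 bp it is 55.6%, as the peaks of syp-1 and htp-1 enter, against 29.2% of all genes at 1500 bp.

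In the combined list the same 3 genes were called at every limit from 200 bp up to 1000 bp. Over this range the share of all genes rose from 10.7% to 24.9%, so it came closer to the members' 33.3%. At 100 bp syp-2 alone was called, against 4.52% of all genes, and at 50 bp no member was, against 2.11%. When the peak itself had to overlap a gene end, syp-2 was again the only one, and the share of all genes under that rule was not computed. In the replicate lists the member peaks inside the 500 bp limit but closest to it were those of rec-8 at 402.5 bp and syp-4 at 386.5 bp. Just outside it lay peak 14862 of replicate 1, centred 632.5 bp from htp-1, peak 15309 of replicate 2, 700.5 bp from rec-8, peak 14497 of replicate 1, 710.5 bp from htp-2, and peak 6561 of replicate 2, 712.5 bp from syp-3.

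Other meiotic genes differed in how often they had a combined peak at an end, which 19.7% of all protein-coding genes had. The other synapsis and axis genes had one at 4 of 6, of which cra-1, a gene required for assembly of the central region, had the strongest (number 643 in replicate 1 and 875 in replicate 2). Peaks at coh-4 and coh-3, which encode kleisins that act beside REC-8, were number 3262 and number 4807. For coh-3 the replicates differed widely, with number 4077 in replicate 1 and 20070 in replicate 2. The peak at syp-6, another central-region gene, was number 3724 in the combined list, with 3092 in replicate 1 and 12643 in replicate 2. Its paralog syp-5 had weak replicate peaks alone, and lab-1, which protects cohesion, had no peak at an end in any list.

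In the list of cohesin core and loading genes, which also holds wapl-1, 8 of 9 had a combined peak at an end, against 19.7% of all genes. The strongest were scc-2, the cohesin loader (number 60), wapl-1, which releases cohesin (number 169), and scc-1, the mitotic kleisin (number 187). For scc-2 the replicate numbers were 89 and 42, for wapl-1 they were 229 and 135, and for scc-1 they were 158 and 226. These peaks ranked above every peak at a member gene. The others were smc-3 (756), evl-14 (812), coh-1 (1621), mau-2 (2293) and scc-3 (3307). Centres lay 150 bp from an end at scc-2 and wapl-1 and 153 bp at coh-1. They lay 260 bp away at scc-1, 261.5 bp at smc-3, 293.5 bp at scc-3, 349.5 bp at mau-2 and 469.5 bp at evl-14. The count of 8 thus rests on the 500 bp limit, and by these peaks only scc-2, wapl-1 and coh-1 would be called at 200 bp. The gene him-1, which encodes the remaining core subunit, had a peak at an end in replicate 2 alone. The kleisin genes thus ranged from number 187 for scc-1 through 1621 for coh-1, 3262 for coh-4 and 4807 for coh-3 to no combined peak for rec-8.

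Of the genes for chromosome pairing and control of synapsis, 1 of 9 had a combined peak at an end (11.1%, against 19.7% of all genes). This was pch-2, which encodes a remodeller of HORMA-domain proteins (number 683 in the combined list, 640 in replicate 1 and 731 in replicate 2). The pairing-centre genes zim-3 and him-8 shared a weaker peak, number 10114 in replicate 1 and 7508 in replicate 2. The genes zim-1, zim-2, sun-1, zyg-12, chk-2 and plk-2 had no peak at an end in any list.

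Among genes for DNA breaks and crossovers, 8 of 17 had a combined peak at an end, against 19.7% of all genes. In order of peak number these were brc-1 (426), rec-1 (575), mre-11 (1336), rad-51 (2002), com-1 (2239), zhp-3 (2405), him-5 (3904) and him-17 (4082). The other 9 had none at an end in the combined list. Of these, him-6 and dsb-2 had a peak at an end in both replicates. For him-6 the numbers were 4929 in replicate 1 and 16735 in replicate 2, and for dsb-2 they were 20351 and 6953. The genes msh-5, him-14, cosa-1 and spo-11 had one in replicate 2 alone, numbers 12412, 8558, 17451 and 5137. In replicate 1 alone xnd-1 had one, number 15551, while dsb-1 and rad-50 had none at an end in any list. In rad-50, as in syp-1, a combined peak (number 3486) lay inside the gene and over 500 bp from both ends, and brc-1 (number 3049) and zhp-3 (number 4026) had such a peak beside the one at an end. The lists of other meiotic genes hold 6 to 17 genes each, and no test between them was made.

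**Figure D4:**
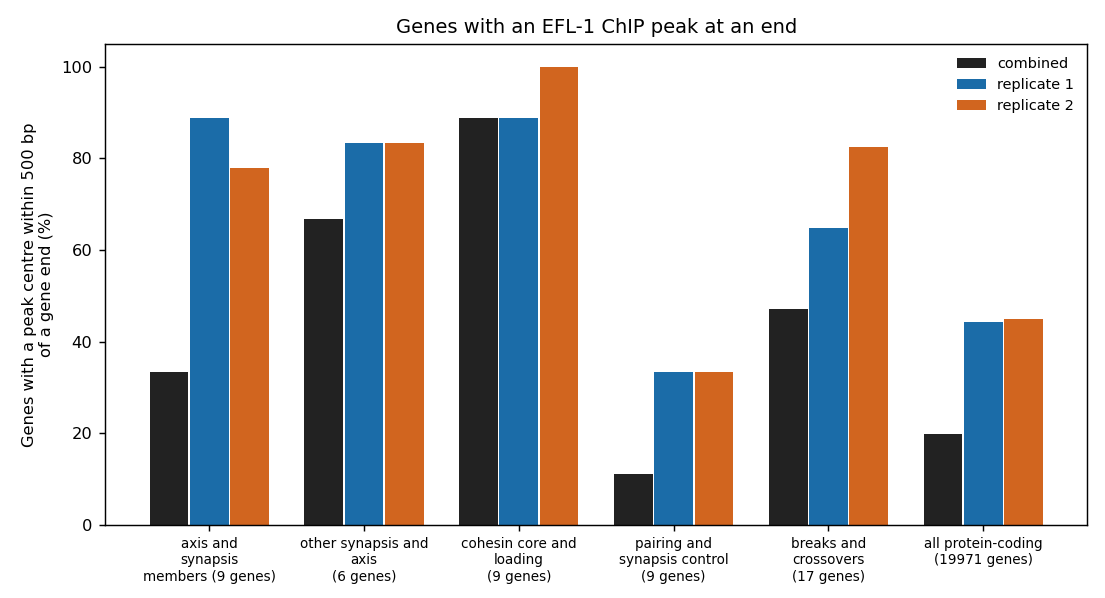
Share of genes with a peak centre within 500 bp of a gene end, in percent, for the 9 members, for 4 lists of other meiotic genes and for all protein-coding genes (bars from 0; black, combined; blue, replicate 1; orange, replicate 2). In the combined list the members stand at 33.3%, the cohesin genes at 88.9%, the pairing genes at 11.1% and all genes at 19.7%.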

How the data were processed

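EFL-1 ChIP peaks were analysed in 3 lists, 1 for each of the 2 ChIP samples and 1 combined; the input samples were not analysed here. Replicates 1 and 2 are the numbers in the sample titles; the files listed for those samples are themselves named as replicates 2 and 3, and the titles were followed. Per the file headers and lines, the authors' peaks are in WormBase WS220 coordinates and came from SPP and IDR. The aligner, tool versions, thresholds and role of the inputs: not given in the sources used here. The score of each peak was deposited by the authors without a unit and served only to check that it falls with the peak number. It rose with the number by at most 8.68e-05 in replicate 1 and 0.000114 in replicate 2. First and last bases are other values that the authors deposited, counted from 1.

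Gene ends came from the RefSeq table of WBcel235, which has no strand. The planned use of gene starts was therefore replaced by either end of a gene, after the table had been seen, for members and all genes alike. Of 51 listed genes, 50 matched; rad-54 did not. Offsets between builds were estimated per chromosome as the sum of the median distances (peak centre minus gene end) to lower and to upper ends, divided by 2. The offset estimate was tested on simulated peaks placed outside gene ends with a uniform shift. Assignment was run on the same peaks, but its outcome was fixed by their placement within the limit. Members, lists and the rule for named genes (all members, genes sharing their peaks, and genes of the other lists with a peak) were chosen with earlier results of these data known. Counts are given beside the share of all genes, without a test. Python 3.11.15, numpy 2.4.6 and matplotlib 3.10.9 were used. No sequence was at hand, so promoters and motifs were not analysed here.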

Additional observations from a re-analysis of the deposited data

How the results depend on the processing

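Of 45 alternative counts of members with a peak at an end, 32 stayed within 1.5 times the value given above. Exactly at that bound, the stronger 50% of the combined list left 2 members in place of 3, against 12.1% of all genes. There syp-2 dropped out. The upper end alone also gave 2 in the combined list, against 11% of all genes. Members in all 3 lists likewise numbered 2 under each of these settings. The counts outside the bound follow. Requiring a peak to overlap a gene end left 1 member in the combined list, 5 in replicate 1, 3 in replicate 2 and 1 in all 3 lists, because a peak beside an end no longer counts. The share of all genes under this rule was not computed, so whether members differ from other genes here is unknown. The stronger 50% of each replicate list left 4 members in replicate 1 and 4 in replicate 2, against 30.5% and 30.4% of all genes, and the 4966 strongest peaks left 3 and 3, fewer peaks by construction. Counting the lower end alone, added after the gene table was seen, gave 1 member in the combined list, 5 in replicate 1 and 1 in all 3 lists; the upper end alone gave 5 in replicate 1 and 3 in replicate 2. Of all genes, 29% had a peak at the lower and 29.5% at the upper end, in either replicate. If the true starts were known, the combined count could thus lie anywhere from 0 to 3. To leave out replicate 1 or replicate 2, the 4966 strongest peaks of the other one stood in for the combined list, with 3 members each time. These are the same counts as the 3 and 3 above, entered again among the 45. The combined list was not rebuilt, so its dependence on either replicate was not tested. A peak anywhere inside the gene or within 500 bp, also added later, gave 4, syp-1 being the fourth, against 22% of all genes. The share of all genes in the combined list was 10.7% within 200 bp and 24.9% within 1000 bp. No paired analysis was possible because no result compares groups of samples, and the inputs were not used here. The motif comparison was not run for want of sequence.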
